A study of Mus musculus with 7 samples.

Results

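The genes described here are 46 genes of the cell division cycle, out of 52459 gene names in the deposited count table, followed in mouse articular chondrocytes that had been treated with BMP2, with TGFβ1 or with vehicle. They were taken by name and placed in 7 classes by role: 10 genes of replication licensing and the replication fork, 3 of nucleotide supply, 2 E2F transcription factors, 7 S-phase and mitotic cyclins and their kinases, 6 genes of G1 entry, 13 of mitosis and 5 inhibitors of cyclin-dependent kinases (CDKs). All but 1 had enough counts to be tested; the exception was the inhibitor gene Cdkn2a. The cells were primary chondrocytes freed by digestion from the femoral head, cultured in medium with 10% fetal bovine serum, and treated for 24 h before total RNA was extracted for bulk sequencing. There were 3 libraries with BMP2 at 100 ng/ml (replicates 1, 2 and 3), 2 with TGFβ1 at 5 ng/ml (replicates 1 and 3) and 2 with vehicle (replicates 1 and 2). Neither strain, age nor genotype of the mice is given in the sources used here, nor whether replicates are separate animals or cultures, so p-values reflect the spread of these libraries alone, and that may be technical.

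A cell commits to division in G1, when cyclin D with CDK4 or CDK6 and then cyclin E with CDK2 release the E2F factors from the RB proteins. E2F then switches on the genes that load the MCM2-7 helicase on DNA and supply nucleotides, and in G2 a further programme, read through CHR elements, switches on mitotic kinases, motors and kinetochore proteins. The CDK inhibitors of the CIP/KIP family (Cdkn1a, Cdkn1b) and of the INK4 family (Cdkn2a, Cdkn2b, Cdkn2c) hold this sequence back. TGFβ is best known for arresting epithelial cells in G1, with lower MYC and higher p15 and p21, whereas BMP signalling is known to sustain the proliferation of growth plate chondrocytes. In cartilage, chondrocytes of the growth plate divide in columns, and those of the adult joint surface seldom divide.

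Counts per library ran from 6747997 to 18047765, the TGFβ1 libraries being the deepest (18047765 and 16271793), and 13367 gene names were tested. Levels are given as CPM (counts scaled by TMM to a common library size), and differences as log2 fold changes with their standard error (SE) from 1 edgeR fit over all 7 libraries. A gene is said to have risen or fallen where its Benjamini-Hochberg adjusted p over all tested genes was under 0.05. Both TGFβ1 libraries were unlike the remaining 5: ribosomal protein genes held 6.72% and 6.62% of their counts, against 1.07% to 1.42% elsewhere, and the fold change with TGFβ1 followed transcript length. Its median was 2.51 in the 505 genes with a principal transcript above 750 and up to 1000 nt, 0.02 in the 2922 genes above 2000 and up to 3000 nt, and −0.57 in the 1019 genes above 7000 nt, whereas for BMP2 against vehicle the medians in the same ranges were −0.06, 0.02 and −0.08. For most genes named, a comparison with TGFβ1 is therefore also given from a fit whose offset removes the trends on length and GC content of transcripts (the length offset). The ligand and the length trend fall on the same 2 libraries and cannot be told apart. The summed level of 8 chondrocyte markers, Col2a1 and Acan among them, was 46707 to 52744 CPM with BMP2, 34211 to 40190 CPM with TGFβ1 and 52844 to 52975 CPM with vehicle. Most of this was Col2a1, at 30948, 29574 and 35505 CPM on average in the same groups. With TGFβ1, Sox9 (−1.40), Acan (−0.88), Col9a1 (−1.75), Col11a1 (−1.30), Hapln1 (−2.09) and Matn3 (−1.53) fell, with the length offset too. Col2a1 (−0.26) and Comp (−0.43) did not pass, though Comp fell with the offset (−0.69). The sum of 8 leukocyte markers was 5.66 to 6.76 CPM with BMP2, 9.70 to 13.6 CPM with TGFβ1 and 7.89 to 8.13 CPM with vehicle. Among them Cd68 (1.58) and Cd14 (1.43) rose with TGFβ1 and Adgre1 fell (−1.67). Of these, only Adgre1 passed with the length offset (−1.52). Cd3e was at 0 in every library. The 7 neutrophil and marrow markers summed to at most 10.98 CPM, with Mpo at 0. S100a8, another of them, rose with TGFβ1 (1.95) but not with the length offset (−0.92), under which S100a9 fell (−1.84). Of 6 fibroblast markers, summing to 9.86 to 13.9 CPM with BMP2, 65.3 to 76.7 CPM with TGFβ1 and 15.2 to 16.7 CPM with vehicle, Ly6a alone had 57.4 and 65.9 CPM with TGFβ1 and Clec3b was at 0 throughout. Pericyte markers (3 genes) summed to 287 to 333 CPM with BMP2, 311 to 334 CPM with TGFβ1 and 184 to 198 CPM with vehicle. Nearly all of this was Cspg4, at 309, 322 and 191 CPM on average in the same groups. The pericyte markers Rgs5 and Kcnj8 had at most 0.663 CPM in any library. Osteoclast markers (4 genes) summed to 101 to 141 CPM with BMP2, 121 to 125 CPM with TGFβ1 and 88.9 to 94.1 CPM with vehicle. Nearly all of this was Ctsk, at 115, 118 and 88.6 CPM on average in the same groups, and Calcr was at 0 throughout. Osteoblast markers (4 genes) summed to 172 to 226 CPM with BMP2, 172 to 206 CPM with TGFβ1 and 226 to 232 CPM with vehicle. Single markers went apart under this sum: Sp7 averaged 70.2, 16.3 and 28.4 CPM in the same groups, and Ibsp 80.1, 144 and 174 CPM. The sums of 4 endothelial, 6 erythroid and 3 skeletal muscle markers stayed at or under 1.86 CPM. The endothelial marker Pecam1 rose with TGFβ1 (5.00), at 0.38 CPM on average against 0 with vehicle. The part of these other cells in the results was not tested. In bulk RNA, fewer cycling cells and less transcript per cycling cell cannot be told apart.

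Promoter windows were searched for elements known from these classes. The windows below, from 250 bases before to 50 bases after the annotated start, are from RefSeq on GRCm38.p6, the same assembly as mm10, and are printed because each holds the element that its class is known for. Capitals mark matches to E2F sites (TTTGGCGC, TTTCGCGC, TTTGCCGC or TTTCCCGC) or to CHR elements (TTTGAA or TTCGAA), on either strand. Cdc6, which loads the helicase, and Mcm6, a helicase subunit, stand for the E2F-driven genes, Kif11 and Plk1 for the mitotic genes, and Cdk1, the kinase that starts mitosis, has both elements.
Cdc6 (chr11:98907901-98908200, + strand): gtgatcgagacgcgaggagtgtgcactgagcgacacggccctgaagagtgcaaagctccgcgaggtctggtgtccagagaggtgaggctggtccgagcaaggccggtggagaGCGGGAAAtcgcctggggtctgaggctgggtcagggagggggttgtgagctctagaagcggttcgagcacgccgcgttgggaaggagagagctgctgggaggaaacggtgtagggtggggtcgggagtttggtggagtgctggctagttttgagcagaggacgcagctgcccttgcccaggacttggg
Mcm6 (chr1:128359656-128359955, - strand): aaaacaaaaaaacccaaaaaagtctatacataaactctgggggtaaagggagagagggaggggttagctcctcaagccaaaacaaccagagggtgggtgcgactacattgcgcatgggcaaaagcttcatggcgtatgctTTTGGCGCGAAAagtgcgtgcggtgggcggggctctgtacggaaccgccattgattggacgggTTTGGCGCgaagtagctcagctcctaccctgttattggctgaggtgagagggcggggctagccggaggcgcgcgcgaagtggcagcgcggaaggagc
Kif11 (chr19:37376132-37376431, + strand): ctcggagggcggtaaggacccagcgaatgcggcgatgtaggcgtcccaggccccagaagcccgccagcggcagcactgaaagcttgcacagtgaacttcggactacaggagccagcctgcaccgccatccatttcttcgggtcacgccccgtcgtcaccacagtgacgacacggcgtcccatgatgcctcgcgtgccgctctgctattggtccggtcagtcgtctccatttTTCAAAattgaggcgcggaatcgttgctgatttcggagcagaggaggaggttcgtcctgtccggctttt
Plk1 (chr7:122159185-122159484, + strand): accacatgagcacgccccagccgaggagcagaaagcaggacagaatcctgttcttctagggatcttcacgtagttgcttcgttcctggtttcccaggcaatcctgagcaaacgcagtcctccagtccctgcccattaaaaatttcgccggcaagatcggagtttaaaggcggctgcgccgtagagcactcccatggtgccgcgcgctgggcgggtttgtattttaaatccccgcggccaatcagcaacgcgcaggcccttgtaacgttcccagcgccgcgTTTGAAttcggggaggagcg
Cdk1 (chr10:69352863-69353162, - strand): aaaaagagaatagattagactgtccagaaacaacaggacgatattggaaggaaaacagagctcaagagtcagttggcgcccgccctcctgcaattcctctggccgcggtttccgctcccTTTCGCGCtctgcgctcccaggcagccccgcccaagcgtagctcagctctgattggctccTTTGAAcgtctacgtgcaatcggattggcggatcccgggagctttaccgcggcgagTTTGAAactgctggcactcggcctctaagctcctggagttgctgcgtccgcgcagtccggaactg

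Windows were found for 37 of the 46 genes. An E2F site lay in the window of 6 of 8 replication genes (Cdc6, Cdt1, Mcm3, Mcm5, Mcm6 and Mcm7) and of 0 of 11 mitosis genes, and in 2.26% of all 32851 windows. The longer capital stretch of Mcm6 is 2 overlapping sites on opposite strands. A CHR element lay in the window of 9 of 11 mitosis genes, all but Birc5 and Cenpe, and of 2 of 8 replication genes, against 19.2% of all windows. All 9 of these mitosis genes also had a CCAAT box (CCAAT), the element bound by NF-Y, and 7.52% of all windows held both. In the other classes, E2F sites and CHR elements each lay in 0 of 3 nucleotide supply genes, 1 of 2 E2F genes and 2 of 5 S-phase and mitotic cyclin and kinase genes. For the genes of G1 entry it was 0 of 3, and for the inhibitors 1 of 5. The MYC-MAX E-box (CACGTG) was matched in 4 of 37 genes (7.15% of all windows) and a SMAD element (CAGACA or GTCTAGAC) in 3 of 37 (21.2% of all windows). These are matches of letters, described without a test, and show no binding.

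**Figure D1:**
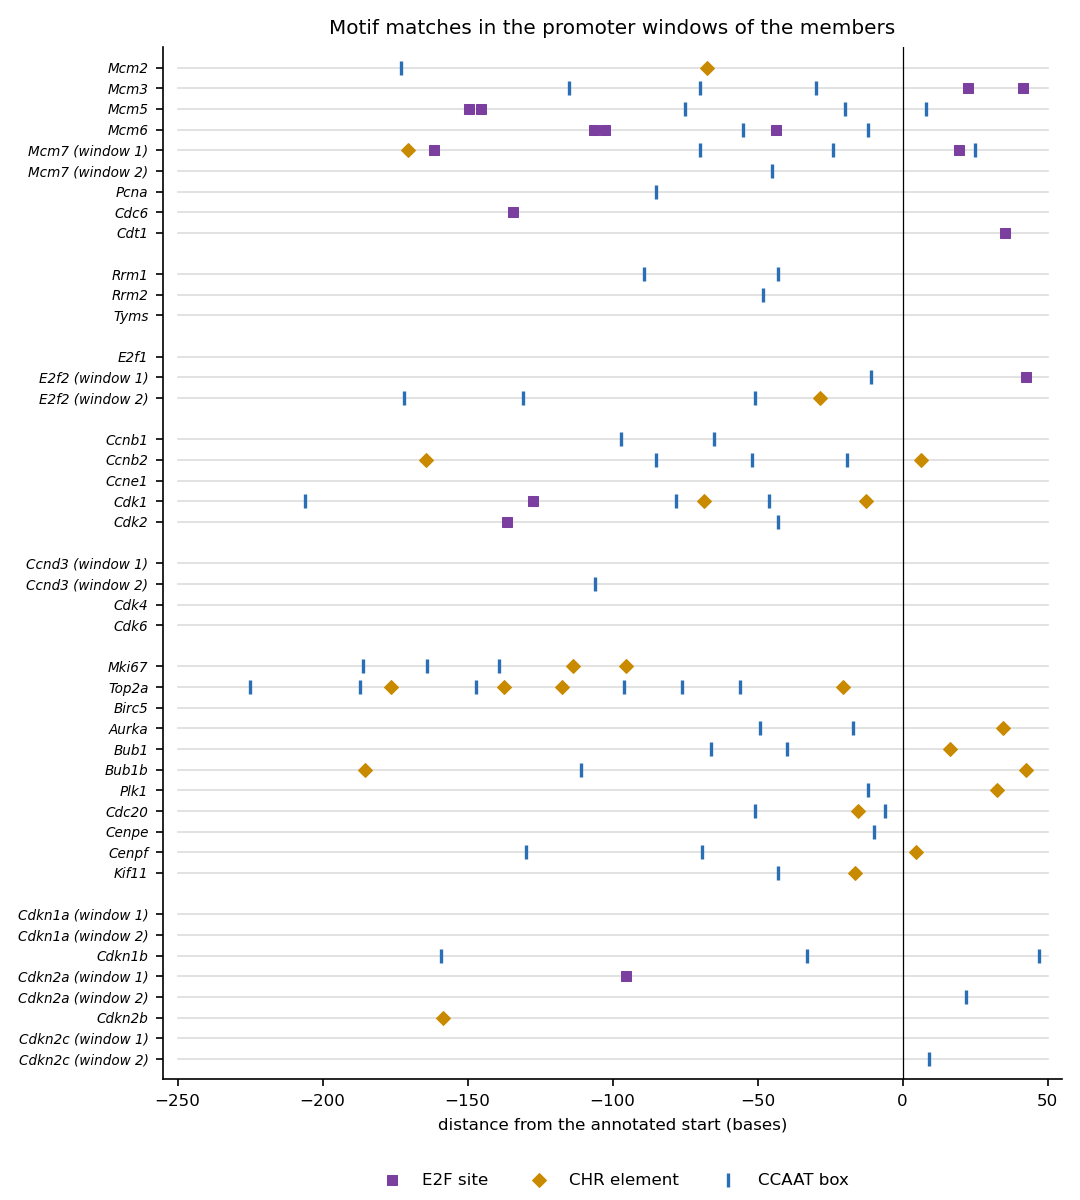
Matches to E2F sites (squares), CHR elements (diamonds) and CCAAT boxes (bars) by distance in bases from the annotated start (line at 0), 1 row per promoter window, with the classes set apart by gaps. E2F sites lie in 6 of 8 replication genes and 0 of 11 mitosis genes, and CHR elements in 9 of 11 mitosis genes, with none in Birc5 or Cenpe.

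Against vehicle, 30 of these genes changed with TGFβ1 and 7 with BMP2. With TGFβ1, 15 of the 45 tested genes rose and 15 fell, while 30.4% of all tested genes rose and 25.8% fell (56.2% in all). The counts were thus close to the share of genes changed in these libraries at large, and the median fold change of the 45 was 0.02, against −0.02 over all genes. Under the length offset there were 17 rises (25.7% of all genes) and 13 falls (23.1%, 48.8% in all), of which 11 and 12 were among those called without it. With BMP2, 6 rose and 1 fell, while 5.33% of all tested genes rose and 6.15% fell (11.5% in all), and the median was 0.18 over the 45, against 0.00 over all genes. Under the offset 5 rose (6.9% of all genes) and 1 fell (6.25%, 13.1% in all). The 6 were Mcm6, Rrm2, Ccne1, Ccne2, Cdk6 and Cdkn1a, and the 1 that fell was Ccnd1. Without vehicle replicate 1, and likewise without vehicle replicate 2, 2 of the 6 rises were left, those of Cdk6 and Cdkn1a. Set directly against TGFβ1, BMP2 gave 18 genes higher and 16 lower, with 28.1% of all genes higher and 33.3% lower (61.4% in all). Under the offset these were 16 (27.2%) and 14 (28.5%, 55.7% in all). Libraries of the compared groups had separate ranges for 80.1% of all tested genes between TGFβ1 and vehicle, 44.6% between BMP2 and vehicle and 73.7% between BMP2 and TGFβ1. The comparisons with vehicle share both vehicle libraries.

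**Figure D2:**
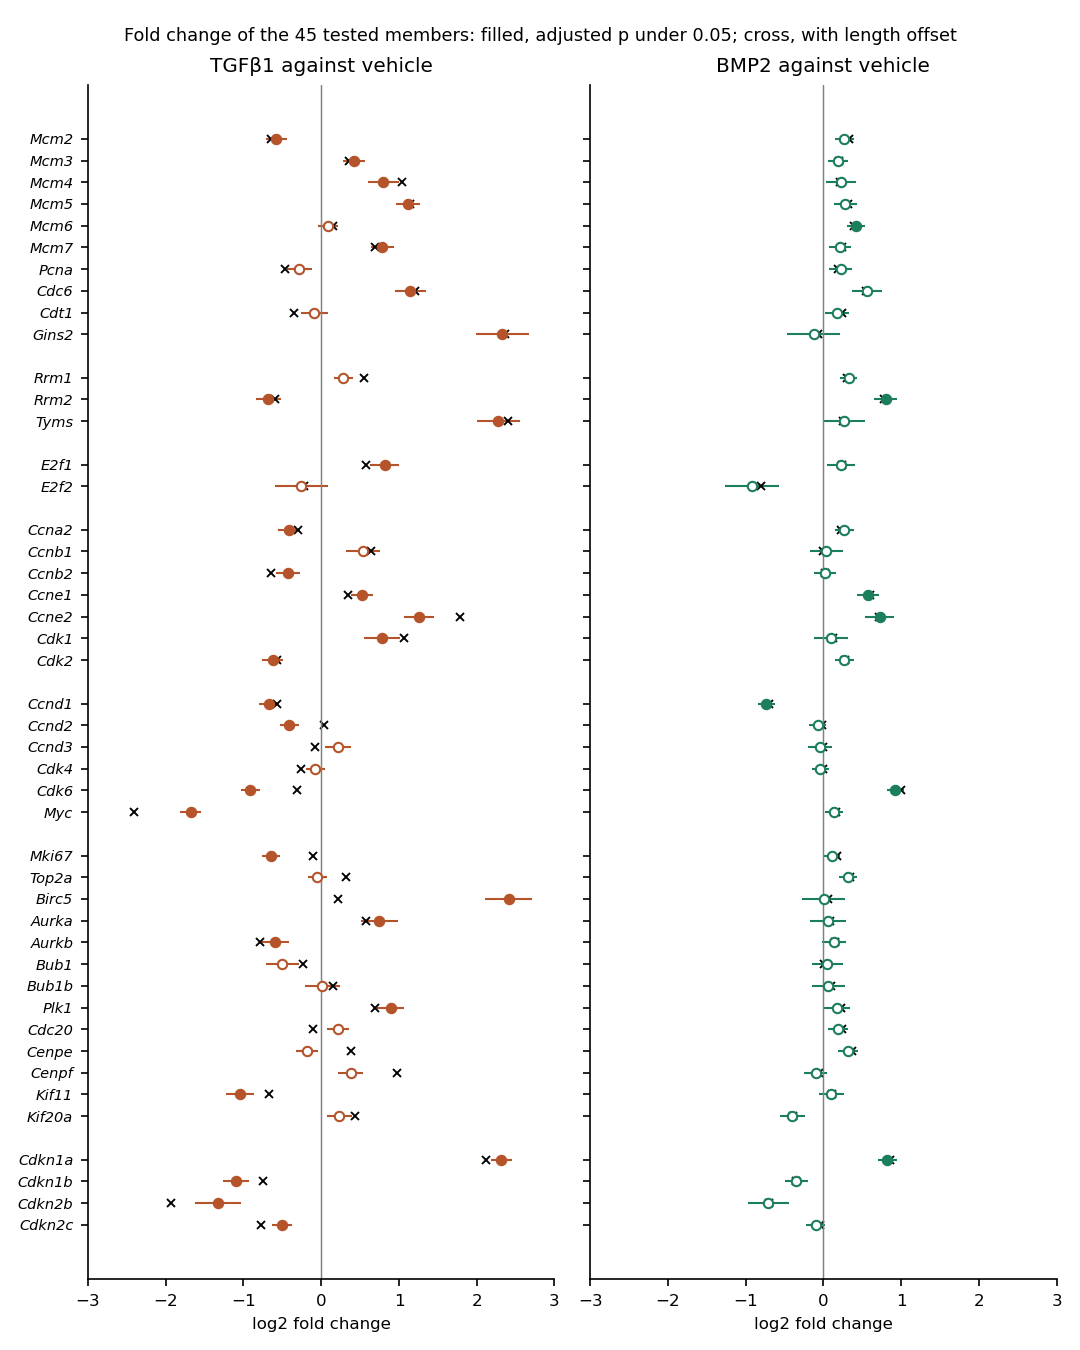
Fitted log2 fold changes of the 45 tested genes against vehicle, TGFβ1 on the left and BMP2 on the right, with bars of 1 SE and the classes from top to bottom as in the text. Filled points passed at an adjusted p under 0.05 (30 of the points for TGFβ1, 7 for BMP2), open points did not, and crosses give the value with the length offset, which lies far from the point for Birc5, Myc, Cdk6 and Cenpf.

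With TGFβ1, 6 of the 10 replication genes rose (Mcm3, Mcm4, Mcm5, Mcm7, Cdc6 and Gins2) and Mcm2 fell, beside 30.4% and 25.8% of all tested genes, with no test of the class. The median was 0.605, or 0.53 with the length offset, under which 5 rose and 2 fell. With BMP2 only Mcm6 of the 10 rose, and the median was 0.23. The 6 subunits of the MCM2-7 ring, the helicase that unwinds DNA ahead of the fork, split with TGFβ1: 4 rose, Mcm2 fell and Mcm6 did not pass. Mcm5 had 26.8, 32.7 and 32.4 CPM with BMP2, 54.4 and 54.9 CPM with TGFβ1, and 28.5 and 22.0 CPM with vehicle. Both TGFβ1 libraries lay above all others, by 1.12 (SE 0.15, adjusted p = 0.000145) over vehicle and 1.14 with the length offset. Mcm2 had 78.1, 68.0 and 63.1 CPM with BMP2, 40.0 and 37.6 CPM with TGFβ1, and 56.7 and 59.2 CPM with vehicle. Here both TGFβ1 libraries lay below all others, and the fold change against vehicle was −0.58 (SE 0.13, adjusted p = 0.00375), or −0.65 with the offset. All BMP2 libraries lay above vehicle for Mcm2, but the difference of 0.27 did not pass (adjusted p = 0.200).

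Mcm4 had 25.6, 42.2 and 37.0 CPM with BMP2, 55.03 and 48.3 CPM with TGFβ1, and 31.7 and 27.6 CPM with vehicle, and Mcm7 had 27.9, 23.3 and 23.0 CPM with BMP2, 39.3 and 34.5 CPM with TGFβ1, and 22.7 and 20.1 CPM with vehicle. For both genes the TGFβ1 libraries were the highest, with rises over vehicle of 0.80 (SE 0.20) for Mcm4 and 0.79 (SE 0.15) for Mcm7, and 1.04 and 0.69 with the offset. The rise of Mcm4 did not pass without vehicle replicate 2 (0.70), and 12.6% of the exon bases of Mcm7 are shared with its neighbours Ap4m1 and Cops6 and with the microRNA genes Mir25 and Mir93. Mcm3 had 30.1, 36.3 and 38.8 CPM with BMP2, 41.3 and 41.0 CPM with TGFβ1, and 30.9 and 30.5 CPM with vehicle. Its TGFβ1 libraries were above vehicle by 0.42 (SE 0.14, adjusted p = 0.0248), a rise that was lost with DESeq2 (0.42), without the low-count filter (0.38), with the offset (0.36) and without TGFβ1 replicate 1 (0.42), vehicle replicate 1 (0.39) or vehicle replicate 2 (0.41). Mcm6 had 100.0, 97.3 and 86.2 CPM with BMP2, 71.0 and 78.3 CPM with TGFβ1, and 67.8 and 73.0 CPM with vehicle. It was the subunit that rose with BMP2, by 0.42 (SE 0.12, adjusted p = 0.0409), with all 3 BMP2 libraries above both vehicle libraries, while its TGFβ1 and vehicle ranges overlapped (0.08, 95% confidence interval −0.20 to 0.36). This rise did not pass when any 1 BMP2 or vehicle library was left out (0.38, 0.41 and 0.49 without BMP2 replicates 1, 2 and 3, and 0.38 and 0.48 without vehicle replicates 1 and 2).

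**Figure D3:**
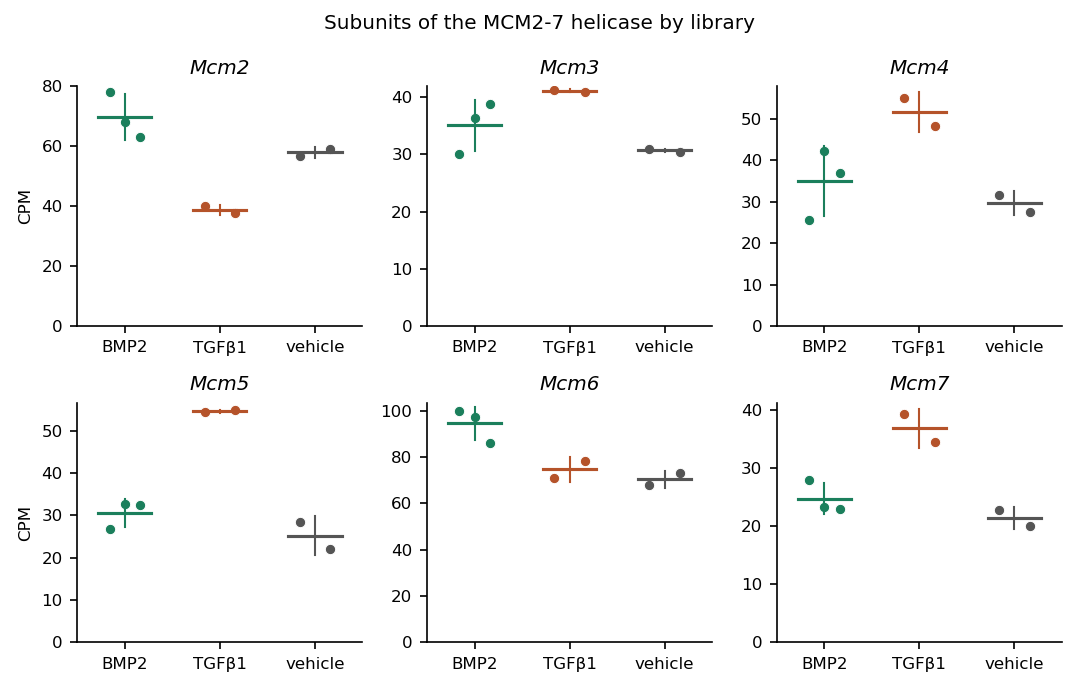
CPM of the 6 MCM2-7 subunit genes in each library (points), with the group mean (bar) and SD (line), for BMP2, TGFβ1 and vehicle from left to right. The TGFβ1 libraries are the highest for Mcm3, Mcm4, Mcm5 and Mcm7 and the lowest for Mcm2, and the BMP2 libraries are the highest for Mcm6.

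Among the loading and fork factors, Cdc6 and Gins2 rose with TGFβ1. Cdc6, which with Cdt1 loads the helicase at origins, had 7.55, 6.496 and 7.15 CPM with BMP2, 9.78 and 11.5 CPM with TGFβ1, and 4.95 and 4.66 CPM with vehicle. Its 3 groups did not overlap, and TGFβ1 exceeded vehicle by 1.15 (SE 0.19, adjusted p = 0.000577), or 1.20 with the length offset, whereas the difference for BMP2 of 0.56 did not pass (adjusted p = 0.0897). Gins2, a subunit of the GINS complex that activates the helicase, had 10.9, 9.02 and 7.71 CPM with BMP2, 67.5 and 33.9 CPM with TGFβ1, and 7.22 and 12.8 CPM with vehicle. Both TGFβ1 libraries stood above the rest, but replicate 1 was far above replicate 3 (log2 ratio 0.99), and the rise was 2.33 (SE 0.34, adjusted p = 0.000207), or 2.36 with the offset. It was 1.75 without TGFβ1 replicate 1. Of the exon bases of Gins2, 67.3% overlap Gse1 on the other strand, and with the strand setting not given in the sources used here, reads of the pair cannot be told apart. Pcna, the sliding clamp of the fork, had 26.7, 34.9 and 31.4 CPM with BMP2, 23.2 and 20.2 CPM with TGFβ1, and 24.3 and 28.5 CPM with vehicle. It did not pass against vehicle with TGFβ1 (−0.28, adjusted p = 0.160) but fell with the offset (−0.46), and BMP2 was above TGFβ1 by 0.51 (SE 0.15). Cdt1, at 13.8 to 20.5 CPM over all libraries, passed in no comparison without the offset.

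Between BMP2 and TGFβ1, 3 of the 10 replication genes were higher and 5 lower, beside 28.1% and 33.3% of all tested genes. Mcm2 (0.85), Mcm6 (0.34) and Pcna were higher with BMP2, and Mcm4 (−0.57), Mcm5 (−0.84), Mcm7 (−0.57), Cdc6 (−0.58) and Gins2 (−2.45) were lower. The differences of Mcm2, Mcm5, Mcm7 and Gins2 passed under all 13 alternatives. Mcm4 did not pass without TGFβ1 replicate 1 (−0.48). Pcna and Cdc6 did not pass without TGFβ1 replicate 3 (0.40 and −0.47), nor Cdc6 with DESeq2 (−0.56). Mcm6 did not pass with the offset (0.25), without BMP2 replicate 2 (0.32) or without TGFβ1 replicate 1 (0.27).

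Of the 3 genes of nucleotide supply, Rrm2 fell and Tyms rose with TGFβ1, and Rrm2 rose with BMP2. Rrm2, the regulated subunit of ribonucleotide reductase (chromosome 12, 24708241 to 24714146, mm10), had 180.0, 234 and 243 CPM with BMP2, 74.9 and 81.9 CPM with TGFβ1, and 118 and 133 CPM with vehicle. The 3 groups were fully separate: BMP2 was above vehicle by 0.80 (SE 0.15, adjusted p = 0.00642), TGFβ1 was below vehicle, at −0.68 (SE 0.16, adjusted p = 0.00443), and BMP2 was above TGFβ1 by 1.48 (SE 0.15, adjusted p = 1.26e-05). With the length offset these were 0.78, −0.59 and 1.37. The rise with BMP2 was lost when vehicle replicate 1 (0.73) or 2 (0.89) was left out. Tyms, the enzyme that makes thymidylate (chromosome 5, 30058202 to 30073617), had 28.8, 20.9 and 23.2 CPM with BMP2, 129 and 67.6 CPM with TGFβ1, and 19.1 and 21.4 CPM with vehicle. Both TGFβ1 libraries were above all others, with replicate 1 again above replicate 3 (log2 ratio 0.93), and the rise was 2.28 (SE 0.28, adjusted p = 5.67e-05), 2.4026 with the offset and 1.74 without TGFβ1 replicate 1. For BMP2 the difference of Tyms from vehicle was 0.27 (adjusted p = 0.576). Rrm1, the large subunit of the reductase, ran from 44.8 to 61.5 CPM and passed in no comparison, with 0.28 for TGFβ1 (adjusted p = 0.0656) and 0.32 for BMP2 against vehicle (adjusted p = 0.0930). With the offset Rrm1 rose with TGFβ1 (0.55), and it also passed without BMP2 replicate 1, at 0.28 for TGFβ1 and 0.38 for BMP2.

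E2f1, the activator that drives S-phase genes, had 17.4, 13.3 and 12.5 CPM with BMP2, 20.1 and 23.6 CPM with TGFβ1, and 12.3 and 12.4 CPM with vehicle. Both TGFβ1 libraries were above the others, and the rise over vehicle was 0.82 (SE 0.18, adjusted p = 0.00338), or 0.57 with the length offset. BMP2 was below TGFβ1, at −0.59 (SE 0.16), which did not pass with the offset (−0.33) or without TGFβ1 replicate 3 (−0.48). E2f2, a second activator, had 1.20, 2.52 and 1.41 CPM with BMP2, 2.43 and 2.75 CPM with TGFβ1, and 3.08 and 3.11 CPM with vehicle, and passed in no comparison. Its difference from vehicle for BMP2 was −0.91 (95% confidence interval −1.68 to −0.14, adjusted p = 0.126).

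The 7 cyclins and kinases of S phase and mitosis divided evenly with TGFβ1: Ccne1, Ccne2 and Cdk1 rose, and Ccna2, Ccnb2 and Cdk2 fell. Of all tested genes, 30.4% rose and 25.8% fell. With BMP2 both cyclin E genes rose, beside 5.33% of all tested genes, and the other 5 did not pass. Ccne2, which encodes a cyclin E that partners CDK2 at the start of S phase, had 40.0, 26.5 and 27.4 CPM with BMP2, 44.8 and 46.3 CPM with TGFβ1, and 18.5 and 19.6 CPM with vehicle. All libraries of both ligands lay above vehicle, by 1.26 (SE 0.19, adjusted p = 0.000303) for TGFβ1 and 0.72 (SE 0.18, adjusted p = 0.0285) for BMP2. With the length offset TGFβ1 gave 1.78 and BMP2 gave 0.72, which did not pass (adjusted p = 0.0541), and 17.4% of its exon bases overlap Ints8 on the other strand. Ccne1, the other cyclin E gene, had 24.4, 20.8 and 20.5 CPM with BMP2, 20.7 and 21.8 CPM with TGFβ1, and 14.4 and 15.1 CPM with vehicle. Again every library of both ligands was above vehicle, by 0.53 (SE 0.15) for TGFβ1 and 0.57 (SE 0.14) for BMP2, while the ligands did not differ beyond their spread (BMP2 against TGFβ1 0.05, 95% confidence interval −0.23 to 0.33). The Ccne1 rise with TGFβ1 did not pass with the offset (0.34) or without vehicle replicate 1 (0.45). For BMP2 neither cyclin E gene passed when vehicle replicate 1 (Ccne1 0.55, Ccne2 0.68) or 2 was left out (0.61 and 0.77).

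Cdk2, the partner kinase of cyclins E and A, had 27.2, 32.0 and 28.3 CPM with BMP2, 16.3 and 14.9 CPM with TGFβ1, and 23.4 and 24.8 CPM with vehicle. It was lowest with TGFβ1, at −0.63 (SE 0.14, adjusted p = 0.00317) against vehicle and −0.56 with the offset, and BMP2 was above TGFβ1 by 0.90 (SE 0.13). Ccna2, the cyclin A gene of S phase and G2, had 85.2, 70.3 and 72.3 CPM with BMP2, 43.7 and 51.0 CPM with TGFβ1, and 61.4 and 64.6 CPM with vehicle. Its fall with TGFβ1, at −0.41 (SE 0.14, adjusted p = 0.0267), did not pass with the offset (−0.30), without TGFβ1 replicate 1 (−0.30) or without either vehicle library (−0.49 and −0.38), but BMP2 above TGFβ1, by 0.68 (SE 0.13), passed under all 13 alternatives. Exosc9 overlaps 12.5% of its exon bases on the other strand. Cdk1, the mitotic kinase whose window is printed above, had 51.0, 44.5 and 46.2 CPM with BMP2, 95.6 and 55.8 CPM with TGFβ1, and 37.2 and 51.1 CPM with vehicle. Its TGFβ1 replicates lay far apart (log2 ratio 0.78), and the rise of 0.78 (SE 0.23, adjusted p = 0.0155) was 1.06 with the offset. It did not pass when TGFβ1 replicate 1 (0.34) or vehicle replicate 1 (0.52) was left out.

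The cyclin B genes, whose products activate CDK1, went apart. Ccnb2 had 28.5, 39.1 and 35.6 CPM with BMP2, 25.3 and 25.0 CPM with TGFβ1, and 34.6 and 32.8 CPM with vehicle. Its TGFβ1 libraries were the lowest, at −0.42 (SE 0.16, adjusted p = 0.0389) against vehicle, or −0.65 with the offset. That fall did not pass with DESeq2 (−0.42), nor without BMP2 replicate 3 (−0.42), TGFβ1 replicate 1 (−0.43) or 3 (−0.41), or vehicle replicate 1 (−0.43) or 2 (−0.46). Ccnb1 had 8.66, 8.62 and 6.02 CPM with BMP2, 11.3 and 10.7 CPM with TGFβ1, and 6.55 and 8.49 CPM with vehicle. Its TGFβ1 libraries were above all others, but the difference from vehicle of 0.54 did not pass (adjusted p = 0.0569). With the offset it rose (0.64), and it also passed with only the TGFβ1 and vehicle libraries (0.53) and without BMP2 replicate 1 (0.54) or 3 (0.54). BMP2 against TGFβ1 gave −0.50 for Ccnb1, 0.45 for Ccnb2, −0.68 for Cdk1 and −0.53 for Ccne2, all of which passed. With the offset they were −0.64, 0.68, −0.94 and −1.07.

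Between BMP2 and TGFβ1, several of these calls rested on single libraries. Cdk1 did not pass without TGFβ1 replicate 1 (−0.24) and was −1.02 without TGFβ1 replicate 3. Ccne2 did not pass without BMP2 replicate 2 (−0.43), BMP2 replicate 3 (−0.44) or TGFβ1 replicate 3 (−0.51). Ccnb2 did not pass without BMP2 replicates 2 or 3 or TGFβ1 replicates 1 or 3, at 0.35 to 0.45. Ccnb1 did not pass with DESeq2 (−0.48), without the filter (−0.45), with only the libraries of both groups (−0.46), or without BMP2 replicate 3 (−0.34), TGFβ1 replicate 1 (−0.47), TGFβ1 replicate 3 (−0.55) or vehicle replicate 1 (−0.46).

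Of the 6 genes of G1 entry, 4 fell with TGFβ1 (Ccnd1, Ccnd2, Cdk6 and Myc) and 0 rose, beside 25.8% and 30.4% of all tested genes. With the length offset 3 fell (23.1% of all tested genes) and 0 rose (25.7%). With BMP2, Cdk6 rose and Ccnd1 fell, beside 5.33% and 6.15% of all tested genes. Cdk6, a cyclin D kinase (chromosome 5, 3341485 to 3531008), had 149, 147 and 149 CPM with BMP2, 38.8 and 44.4 CPM with TGFβ1, and 78.0 and 78.5 CPM with vehicle. The 3 groups were separate with little spread inside each: BMP2 was above vehicle by 0.92 (SE 0.11, adjusted p = 0.000467), and TGFβ1 was below vehicle, at −0.91 (SE 0.12, adjusted p = 0.000105). Its principal transcript of 11525 nt is the longest of the 46, and with the length offset the fall with TGFβ1 was −0.31 (adjusted p = 0.0417), against 1.00 for the rise with BMP2. BMP2 against TGFβ1 gave 1.83, or 1.31 with the offset.

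Myc, a transcription factor that drives cell growth and division (chromosome 15, 61985391 to 61990374), had 40.7, 47.6 and 47.1 CPM with BMP2, 13.3 and 12.2 CPM with TGFβ1, and 42.8 and 39.1 CPM with vehicle. Its TGFβ1 libraries were far below the rest, and the BMP2 and vehicle ranges overlapped. The fall with TGFβ1 was −1.68 (SE 0.14, adjusted p = 3.17e-06), and −2.41 with the length offset. Its principal transcript has 1365 nt, and genes above 1000 and up to 1500 nt had a median of 0.86. For BMP2 the difference from vehicle was 0.14 (95% confidence interval −0.13 to 0.40), and BMP2 against TGFβ1 was 1.82 (SE 0.13, adjusted p = 6.94e-07). Ccnd1, the cyclin D1 gene (chromosome 7, 144929931 to 144939925), had 41.4, 45.9 and 46.6 CPM with BMP2, 48.6 and 44.3 CPM with TGFβ1, and 76.4 and 72.2 CPM with vehicle. It was the 1 gene of the 46 that fell with both ligands. The fold change was −0.74 (SE 0.11, adjusted p = 0.00186) with BMP2 and −0.68 (SE 0.12, adjusted p = 0.000776) with TGFβ1 (−0.56 with the offset), and every treated library was below vehicle. The ligands did not differ beyond their spread for Ccnd1 (−0.06, 95% confidence interval −0.30 to 0.18), and 23.4% of its exon bases overlap LTO1 on the other strand.

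Ccnd2, the cyclin D2 gene, was the most abundant of the 46 per length in vehicle cells, at 161 ± 4.86 CPM per kb of principal transcript (SD, n = 2). Its libraries had 916, 989.6 and 998 CPM with BMP2, 794 and 742 CPM with TGFβ1, and 1041 and 998 CPM with vehicle. It fell with TGFβ1, at −0.41 (SE 0.13, adjusted p = 0.0178), but did not pass without vehicle replicate 1 (−0.42) or 2 (−0.44), and with the length offset the value was 0.03, of the other sign, for a transcript of 6330 nt. BMP2 was above TGFβ1 by 0.33 (SE 0.12), which was −0.05 with the offset and did not pass without BMP2 replicates 2 or 3, TGFβ1 replicate 3 or vehicle replicate 2 (0.32, 0.31, 0.28 and 0.34). Ccnd3, the cyclin D3 gene, at 35.1 to 51.9 CPM, and Cdk4, the other cyclin D kinase, at 128 to 144 CPM, passed in no comparison. The intervals for Cdk4 were −0.34 to 0.19 for TGFβ1 and −0.29 to 0.20 for BMP2 against vehicle, and Tspan31 overlaps 19.7% of its exon bases on the other strand.

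**Figure D4:**
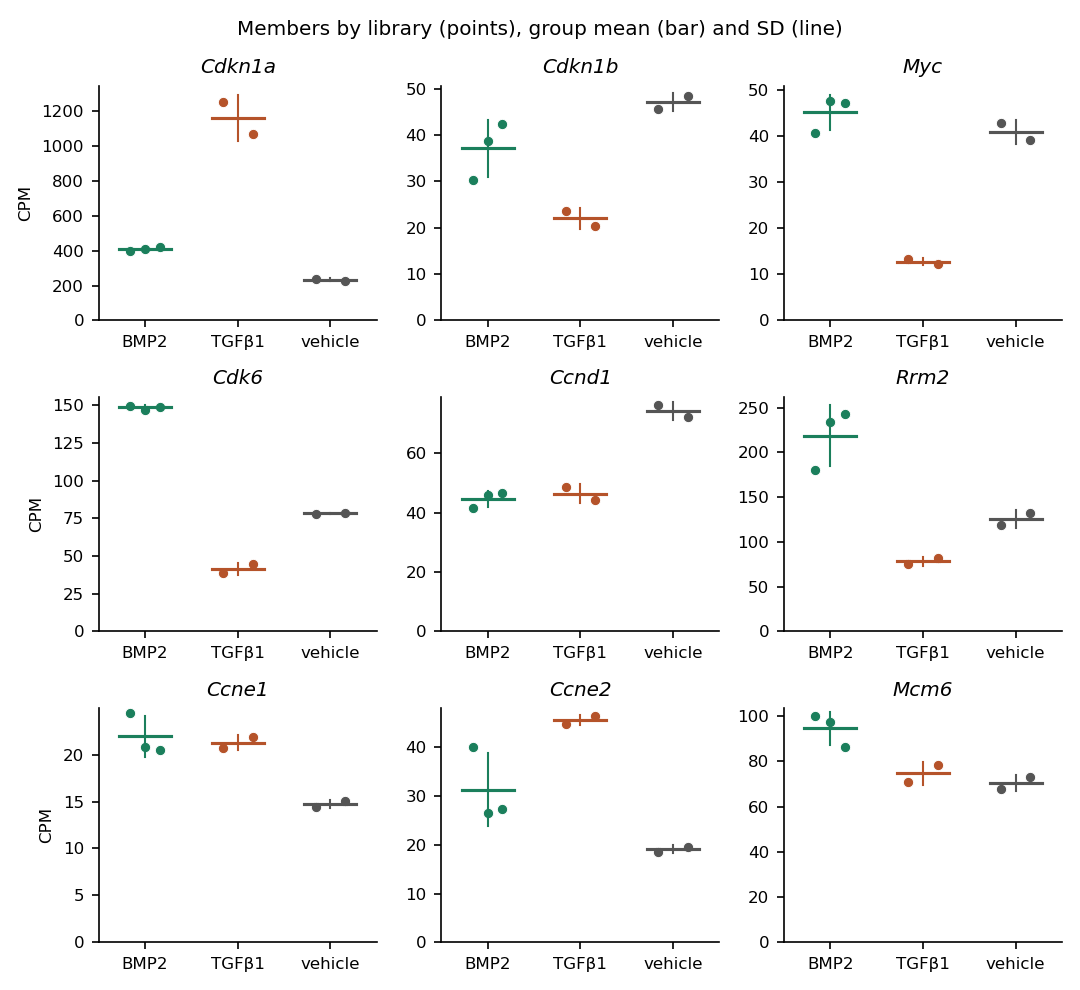
CPM in each library (points), group mean (bar) and SD (line) for 9 genes, with BMP2, TGFβ1 and vehicle from left to right. Cdk6 and Rrm2 are highest with BMP2 and lowest with TGFβ1, Myc and Cdkn1b are lowest with TGFβ1, Cdkn1a is highest with TGFβ1, and Ccnd1 is lower with either ligand than with vehicle.

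With BMP2, 0 of the 13 mitosis genes passed against vehicle in edgeR, while 11.5% of all tested genes did, and their fold changes ran from −0.40 to 0.32. An unadjusted p under 0.05 was found for 3 of them, and DESeq2 also called 0. Without BMP2 replicate 1, Top2a passed (0.38). With TGFβ1 the class split, with Birc5, Aurka and Plk1 higher and Mki67, Aurkb and Kif11 lower, and a median of 0.02. With the length offset there were 5 rises and 2 falls. Of all tested genes, 30.4% rose and 25.8% fell, or 25.7% and 23.1% with the offset. Plk1, the polo-like kinase of mitotic entry, had 14.2, 18.8 and 14.3 CPM with BMP2, 27.3 and 24.2 CPM with TGFβ1, and 12.8 and 14.8 CPM with vehicle. Both TGFβ1 libraries were above all others, by 0.89 (SE 0.17, adjusted p = 0.00138) over vehicle and 0.69 with the offset. Kif11, the kinesin that separates the spindle poles, had 29.5, 38.7 and 34.6 CPM with BMP2, 13.7 and 17.3 CPM with TGFβ1, and 28.3 and 35.2 CPM with vehicle. Its TGFβ1 libraries were the lowest by a wide gap, at −1.04 (SE 0.18, adjusted p = 0.000661) against vehicle, or −0.67 with the offset. Both genes have a CHR element and a CCAAT box in the windows printed above, and their fold changes with TGFβ1 had opposite signs.

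For Birc5 and Mki67 the call ended with the length offset. Birc5, or survivin, a subunit of the chromosomal passenger complex, had 24.1, 29.2 and 29.2 CPM with BMP2, 199 and 92.2 CPM with TGFβ1, and 25.3 and 29.3 CPM with vehicle. TGFβ1 exceeded vehicle by 2.41 (SE 0.30, adjusted p = 6.74e-05), but its replicates differed (log2 ratio 1.11). Its principal transcript of 947 nt puts it among genes whose median was 2.51, and with the offset the value was 0.22 (adjusted p = 0.321). Mki67, the proliferation marker Ki-67, had 112, 116 and 118 CPM with BMP2, 64.9 and 72.6 CPM with TGFβ1, and 107 and 108 CPM with vehicle. Its fall with TGFβ1, at −0.64 (SE 0.12, adjusted p = 0.000901), became −0.10 (adjusted p = 0.468) with the offset, for a transcript of 10061 nt, and BMP2 and vehicle differed by 0.11 (95% confidence interval −0.13 to 0.34). BMP2 above TGFβ1, by 0.75 (SE 0.11), passed with the offset too, at 0.28.

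The aurora kinases went in opposite directions with TGFβ1. Aurka, which acts at the spindle poles, had 13.1, 12.6 and 12.6 CPM with BMP2, 21.1 and 20.004 CPM with TGFβ1, and 8.16 and 16.1 CPM with vehicle. The TGFβ1 libraries were the highest, by 0.75 (SE 0.24, adjusted p = 0.0213), but the vehicle replicates were far apart, and the value was 1.33 without vehicle replicate 2. Without vehicle replicate 1 it was 0.30, without TGFβ1 replicate 1 0.71 and with the offset 0.57, none of which passed. Aurkb, the kinase of the passenger complex, had 13.6, 16.6 and 15.6 CPM with BMP2, 9.34 and 9.09 CPM with TGFβ1, and 15.2 and 12.6 CPM with vehicle. It was lowest with TGFβ1, at −0.59 (SE 0.17, adjusted p = 0.0128) and −0.79 with the offset, and the fall did not pass without vehicle replicate 1 (−0.49). BMP2 was above TGFβ1 for Aurkb by 0.72 and below it for Aurka, at −0.68.

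Set against TGFβ1, BMP2 gave 6 of the 13 mitosis genes higher and 5 lower, beside 28.1% and 33.3% of all tested genes. With the offset there were 4 and 4, beside 27.2% and 28.5%. Of the other mitosis genes, 5 passed in this comparison but in neither comparison with vehicle. Top2a, the topoisomerase that untangles sister chromatids, had 174, 193 and 199 CPM with BMP2, 147 and 145 CPM with TGFβ1, and 144 and 158 CPM with vehicle. BMP2 libraries were the highest, by 0.37 (SE 0.12, adjusted p = 0.0171) over TGFβ1, a value of 0.02 with the offset. Bub1, a spindle checkpoint kinase, had 11.2, 12.6 and 10.3 CPM with BMP2, 8.83 and 6.57 CPM with TGFβ1, and 12.6 and 9.33 CPM with vehicle, and BMP2 was above TGFβ1 by 0.55 (SE 0.19). Cenpe, a kinetochore motor, had 42.7, 51.0 and 48.5 CPM with BMP2, 34.3 and 32.8 CPM with TGFβ1, and 35.0 and 41.0 CPM with vehicle, with BMP2 above TGFβ1 by 0.50 (SE 0.12). With the offset neither passed, at 0.24 for Bub1 and −0.02 for Cenpe, whose transcript is 7910 nt long. Cenpf, a kinetochore protein, had 49.9, 61.4 and 62.5 CPM with BMP2, 92.1 and 69.6 CPM with TGFβ1, and 62.4 and 61.7 CPM with vehicle. BMP2 was below TGFβ1, at −0.48 (SE 0.14), or −1.04 with the offset, under which Cenpf also rose with TGFβ1 over vehicle (0.98). Kif20a, a kinesin of cytokinesis, had 12.2, 11.8 and 12.0 CPM with BMP2, 19.6 and 17.6 CPM with TGFβ1, and 13.5 and 18.1 CPM with vehicle, and BMP2 was below TGFβ1, at −0.63 (SE 0.15). Cdc23 overlaps 29.3% of its exon bases on the other strand. For Bub1 and Cenpe every BMP2 library was above both TGFβ1 libraries, and for Cenpf and Kif20a every one was below both. Against TGFβ1, BMP2 also differed for Plk1 (−0.72), Kif11 (1.14) and Birc5 (−2.41, or −0.15 with the offset). Bub1b, a checkpoint protein at 8.29 to 11.5 CPM, and Cdc20, the activator of the anaphase-promoting complex at 25.0 to 32.3 CPM, passed in no comparison without the offset.

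Among these differences of BMP2 from TGFβ1, those of Mki67, Aurkb and Kif11, higher, and of Plk1 and Kif20a, lower, passed under all 13 alternatives. Aurka and Cenpf did not pass without TGFβ1 replicate 1 (−0.65 and −0.27). Bub1 did not pass without BMP2 replicate 2 (0.48) or TGFβ1 replicate 3 (0.35), nor Top2a without those libraries or BMP2 replicate 3 (0.35, 0.35 and 0.33). With the offset Plk1 was −0.46, and Kif11 and Kif20a were 0.78 and −0.82.

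Among the 4 tested CDK inhibitors of the 46 genes, Cdkn1a had the largest fold change against vehicle with either ligand. Cdkn1a, or p21, which blocks cyclin-CDK2 and binds PCNA (chromosome 17, 29090976 to 29100727), had 399.7, 412 and 423 CPM with BMP2, 1253 and 1067 CPM with TGFβ1, and 239 and 227 CPM with vehicle. The 3 groups were separate: TGFβ1 was above vehicle by 2.32 (SE 0.14, adjusted p = 2.35e-07), BMP2 above vehicle by 0.82 (SE 0.12, adjusted p = 0.00196), and BMP2 below TGFβ1, at −1.49 (SE 0.12, adjusted p = 1.63e-06). With the length offset these were 2.12, 0.86 and −1.25, and all 3 passed under all 13 alternatives. Per length it was the most abundant of the 46 with either ligand, at 198 ± 5.7 CPM per kb with BMP2 (SD, n = 3) and 558 ± 63.3 CPM per kb with TGFβ1 (SD, n = 2), against 112 ± 3.98 CPM per kb with vehicle (SD, n = 2).

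The other 3 tested inhibitors of the 46 genes fell with TGFβ1, beside 25.8% of all tested genes (23.1% with the length offset). Cdkn1b, or p27, had 30.3, 38.7 and 42.4 CPM with BMP2, 23.7 and 20.4 CPM with TGFβ1, and 45.7 and 48.6 CPM with vehicle. Its 3 groups did not overlap, and the fold change with TGFβ1 was −1.10 (SE 0.17, adjusted p = 0.000278), or −0.74 with the offset, while the difference of −0.35 for BMP2 did not pass (adjusted p = 0.177). Cdkn2b, or p15, had 3.60, 3.18 and 3.39 CPM with BMP2, 1.62 and 2.83 CPM with TGFβ1, and 6.15 and 5.02 CPM with vehicle. Every library of both ligands was below vehicle, at −1.33 (SE 0.30, adjusted p = 0.00328) for TGFβ1, while −0.71 for BMP2 did not pass (adjusted p = 0.122). Its fall with TGFβ1 was −1.93 with the offset and −1.77 and −0.97 without TGFβ1 replicates 3 and 1. Cdkn2c, or p18, had 34.5, 29.8 and 32.1 CPM with BMP2, 25.7 and 22.9 CPM with TGFβ1, and 35.2 and 33.9 CPM with vehicle. It was lowest with TGFβ1, at −0.50 (SE 0.13, adjusted p = 0.00726) and −0.78 with the offset, and did not differ beyond its spread between BMP2 and vehicle (−0.10, 95% confidence interval −0.36 to 0.16). Cdkn2a, the gene of p16 and ARF, had 1 to 7 counts in every library and was not tested, so that no difference in it was detectable at this depth. Between BMP2 and TGFβ1, Cdkn1b was higher with BMP2 by 0.75 (0.39 with the offset) and Cdkn2c by 0.40 (0.73 with the offset, and 0.32 without TGFβ1 replicate 3, which did not pass). Cdkn2b was higher by 0.62, which did not pass (adjusted p = 0.0801), and by 1.23 with the offset, which did.

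**Figure D5:**
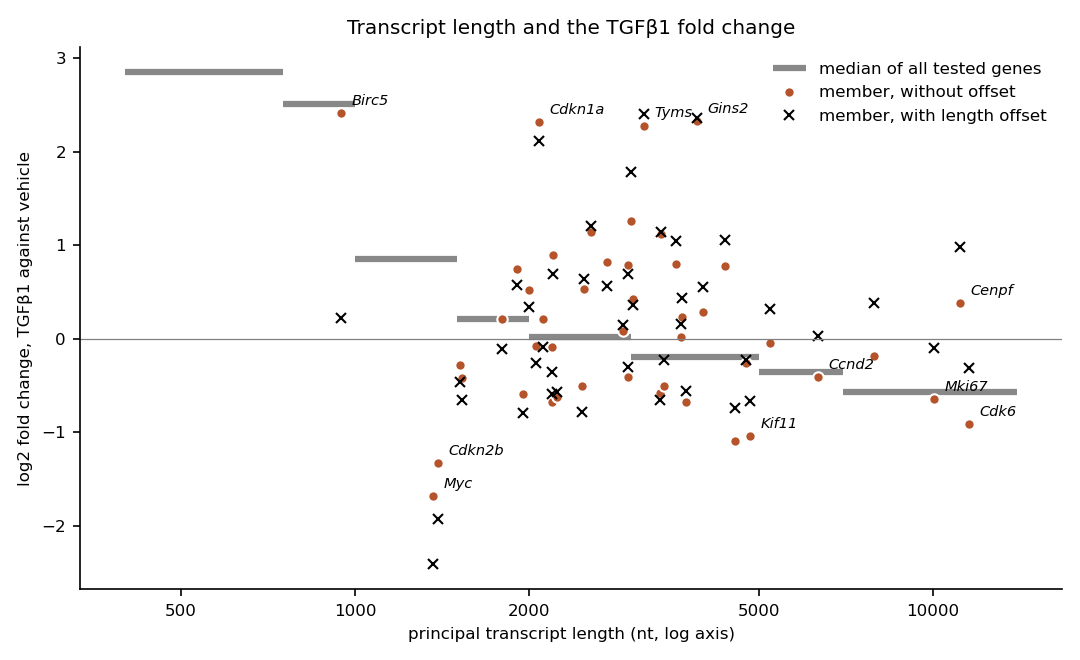
Log2 fold change of TGFβ1 against vehicle by principal transcript length in nt (log axis): circles are the 45 tested genes without the length offset, crosses the same genes with it, and grey bars the median of all tested genes in each range of lengths. Birc5 lies near its bar, at 2.41, and near 0 with the offset, Myc and Cdkn2b lie far below theirs, and Cdkn1a, Tyms and Gins2 lie above theirs with and without the offset.

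The length offset left Gins2 (2.36) and Tyms (2.4026) close to their values without it. The offset acts on 1 assigned principal transcript per gene, of 3900 nt for Gins2 and 3163 nt for Tyms. Whether these cells use transcripts of those lengths was not tested, so neither rise is shown to be free of the length trend. The offset ended the TGFβ1 calls of Mcm3, Ccna2, Ccne1, Ccnd2, Mki67, Birc5 and Aurka and made calls of Rrm1 (0.55), Ccnb1 (0.64), Cenpf (0.98), Kif20a (0.43), Top2a (0.32) and Cenpe (0.38), which were higher, and of Pcna (−0.46), which was lower. Passing in every one of the 13 alternatives for TGFβ1 against vehicle were 9 of the 15 rises (Mcm5, Mcm7, Cdc6, Gins2, Tyms, E2f1, Ccne2, Plk1 and Cdkn1a) and 10 of the 15 falls (Mcm2, Rrm2, Cdk2, Ccnd1, Cdk6, Myc, Kif11, Cdkn1b, Cdkn2b and Cdkn2c). The share of all tested genes that passed in every alternative is not given here, so these counts do not set the genes apart from others.

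Other genes of the same pathways were counted in 6 lists of 107 genes in all, of which 105 were tested. These lists were drawn up with earlier results of these data known. With TGFβ1 39 rose and 22 fell, set against 30.4% and 25.8% of all tested genes, and under the offset the counts were 38 and 14. Of 28 other replication genes 13 rose and 1 fell, or 12 and 2 with the offset, with a median of 0.45. The 4 with the smallest p were Lig1, the ligase that joins Okazaki fragments (2.42), the origin recognition gene Orc6 (2.07), the primase gene Prim1 (1.47) and the clamp loader gene Rfc3 (2.28), and these were 2.35, 1.54, 1.36 and 1.80 with the offset. Of 36 other mitosis genes 12 rose and 6 fell, or 14 and 2 with the offset. The first 4 were Pttg1, or securin (3.87), the CDK-binding genes Cks1b (3.53) and Cks2 (3.35), and Cdca8, of the passenger complex (1.18). With the offset these were 1.92, 1.04, 0.51 and 0.88, and Cks2 no longer passed.

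The counts in the next lists stand beside 30.4% of all tested genes that rose with TGFβ1 and 25.8% that fell. With the offset these shares were 25.7% and 23.1%. Of 13 genes of the RB and E2F family 1 rose and 5 fell with TGFβ1 (2 and 3 with the offset). The falls were led by the E2F partner gene Tfdp1 (−0.70), Rb1 (−0.78), Lin54 (−0.72) and the repressor gene E2f6 (−0.54). Rb1 and Lin54 did not pass with the offset (−0.39 and −0.34) or without TGFβ1 replicate 1 (−0.58 and −0.57), nor Rb1 without vehicle replicate 2 (−0.62). E2f6 did not pass without TGFβ1 replicate 1 (−0.49) or vehicle replicate 1 (−0.50). Among 17 p53 and growth arrest genes 7 rose and 7 fell, or 5 and 6 with the offset. Gadd45b, a stress and growth arrest gene, averaged 89.0 ± 0.572 CPM with BMP2 (SD, n = 3), 431 ± 80.9 CPM with TGFβ1 and 19.9 ± 0.670 CPM with vehicle (SD, n = 2 each), and rose by 4.44 with TGFβ1 (3.58 with the offset) and by 2.16 with BMP2. Gadd45g (2.28, offset 0.60) and the cell death gene Bax (3.21, offset 0.52) rose with TGFβ1, and Sesn1 fell (−1.82). The CIP/KIP inhibitor gene Cdkn1c, or p57, averaged 47.4 ± 2.26 CPM with BMP2 (SD, n = 3), 16.5 ± 2.11 CPM with TGFβ1 and 102 ± 8.60 CPM with vehicle (SD, n = 2 each), and fell with both, at −1.10 for BMP2 and −2.63 for TGFβ1. Cdkn3 rose by 3.07 with TGFβ1 (0.90 with the offset) and the INK4 gene Cdkn2d by 1.13 (0.54 with the offset, which did not pass). Of 8 tested genes of the MYC network, 4 rose with TGFβ1: Mnt (1.07), Mxd3 (1.49, offset 0.71) and Mxd4 (0.78), which encode MAX partners that oppose MYC, and Mlx (0.87). A further 2 fell, and 0 fell with the offset, under which 4 rose.

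With BMP2, 3 of these 105 genes rose and 3 fell, while 5.33% and 6.15% of all tested genes did. The rises were those of Hells, a chromatin remodeller (0.63), Pole2, a subunit of a replicative polymerase (0.97), and Gadd45b, and the falls those of Mxd4 (−0.53), Sesn1 (−0.54) and Cdkn1c. Without vehicle replicate 1, and likewise without vehicle replicate 2, Hells (0.68 and 0.59), Pole2 (0.97 and 0.98), Mxd4 (−0.49 and −0.57) and Sesn1 (−0.58 and −0.48) did not pass. Sesn1 also missed with DESeq2 (−0.51) and without any 1 BMP2 library (−0.59 to −0.49). In edgeR 0 of the 36 other mitosis genes and 0 of the 13 RB and E2F genes passed, with 4 and 2 of them at an unadjusted p under 0.05. The lowest p were those of Mybl2 (0.73), Ect2 (−0.46), Tpx2 (0.40) and Sgo1 (0.44) among the mitosis genes, and of Lin9 (0.69), Rbl2 (−0.73), E2f5 (0.31) and Tfdp1 (0.18) in the other list. DESeq2 called 0 in both lists. Under other edgeR settings, Mybl2 passed with the offset (0.79), with just the libraries of both groups (0.73) and when TGFβ1 replicate 1 (0.73) or 3 (0.72) was left out. Rbl2 passed without the low-count filter (−0.71) and without BMP2 replicate 1 (−1.08), as did Tpx2 without that library (0.49). BMP2 was above TGFβ1 for 30 of the 105 and below it for 36, while 28.1% of all tested genes were higher and 33.3% lower, and with the offset for 24 and 33. The RB and E2F family had 7 genes higher and 0 lower, among them Tfdp1 (0.88) and Rb1 (0.99, offset 0.60), and other replication genes had 6 higher and 13 lower, led by Lig1 (−2.34) and Orc6 (−1.94).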

How the data were processed

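Total RNA of chondrocytes was sequenced in bulk, in 7 libraries. The deposited table holds raw counts per gene name made by the authors and a deposited gene length (another unit, in bases, not used in any test). The submitters' processing notes name cutadapt, STAR 2.4.2a, Subread, featureCounts, DESeq2 and the build mm10, with no role or order. The annotation, strand setting and multimapping rule were not given in the sources used here. In all, 0 value columns went unused. Library totals ran from 6747997 to 18047765 counts, so low genes carry the widest errors.

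Genes were filtered with filterByExpr (minimum count 10), which kept 13367 of 52459 names, scaled by TMM and fitted with edgeR 4.0.16 (quasi-likelihood test, R 4.3.3, limma 3.58.1) over all 7 libraries, with 4 residual degrees of freedom and a common biological coefficient of variation of 0.133. Benjamini-Hochberg adjustment ran over all tested genes, with a threshold of 0.05, and CPM were computed from the deposited counts. For the length offset, the deviations of log2 CPM (prior count 1) in each library were smoothed by lowess on transcript length (span 0.15) and GC content (span 0.3) in 3 rounds. It used the principal transcripts of GENCODE M21 on mm10, the longest where several had equal rank, and 98.97% of tested genes had a length. Positions are from the same annotation. Overlaps with other genes are named above 10% of exon bases. Promoter windows are from RefSeq, GRCm38.p6.

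The alternatives were DESeq2 1.42.0, DESeq2 size factors, no filter, a fit to just the compared libraries, the replicate block, the length offset and leaving out each library in turn. Calls changed by the replicate block are named in the closing section on processing, not with each gene. Those for the other cell cycle genes were added after seeing the data. Values by library are given for genes that passed in at least 1 comparison and for the CDK inhibitors, and in each list of other cell cycle genes the 4 with the smallest p are named, with others that passed with BMP2. The scripts were tested on simulated data. The 46 genes, the classes and the lists were chosen with earlier results of these data known. Replicates of a group differed by more than counting noise, and unequally. The mean chi-square per gene was 42.9 between the TGFβ1 libraries, 4.73 between the vehicle libraries and 1.88 between BMP2 replicates 2 and 3. For BMP2 replicate 1 against replicates 2 and 3 it was 14.4 and 18.6. The TGFβ1 libraries were also the deepest, and the median absolute log2 ratio was 0.17 within TGFβ1 and 0.16 within vehicle. All groups share 1 estimate of the spread, so the SEs are not specific to a group.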

Additional observations from a re-analysis of the deposited data

How the results depend on the processing

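Over 13 alternatives, 1634 of 1755 fold changes of the 45 genes kept their direction and their side of the threshold, 93 lost it, 22 gained it and 6 reversed. A further sign change in 51 of the 1634, never past the threshold on either side, had sizes up to 0.36. The reversals came with the length offset, which was built to remove the trend with transcript length: Ccnd2 (0.032), Top2a (0.32) and Cenpe (0.38) for TGFβ1 against vehicle, and Ccnd2 (−0.0451), Cdc20 (0.35) and Cenpe (−0.0163) for BMP2 against TGFβ1.

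Same-numbered samples did not deviate together (correlations of −0.139 to −0.0009). With 2 or 3 libraries per group, this cannot settle whether same-numbered samples share an animal or culture. With the replicate block, 3 of the genes rose with BMP2, against 6 without it. The block ended 13 calls and made 1 in all, and these are not repeated in the passages on single genes. For TGFβ1 against vehicle it ended those of Mcm3, Ccna2, Ccnb2, Ccne1, Ccnd2 and Aurkb and made that of Ccnb1 (0.78). For BMP2 against vehicle it ended those of Mcm6, Ccne1 and Ccne2. Between BMP2 and TGFβ1 it ended those of Mcm6, Ccnb2, Ccnd2 and Top2a. Leaving out 1 library each gave 11 to 18 rises and 11 to 15 falls for TGFβ1 against vehicle, 2 to 7 rises and 1 fall for BMP2 against vehicle, and 13 to 18 rises and 11 to 17 falls for BMP2 against TGFβ1. Over all genes, BMP2 against vehicle gave 713 rises and 822 falls, 354 and 417 with the block, 276 and 395 when vehicle replicate 1 was left out and 245 and 312 when vehicle replicate 2 was. Leaving out BMP2 replicate 3 gave 472 and 509, and BMP2 replicate 2 508 and 564. The causes were not tested.

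For the other cell cycle genes, with alternatives chosen after seeing the data, 854 of 897 values kept direction and side, and Mga (−0.0354, length offset, BMP2 against TGFβ1) reversed. The falls with TGFβ1 were 14 with the length offset, against 22. For BMP2 against vehicle, the 3 rises and 3 falls became 10 calls with 6 falls without the filter, 3 calls with 1 fall with the replicate block, and 5 rises with only the libraries of both groups. The block ended the calls of Hells, Mxd4 and Sesn1. Leaving out 1 library each gave 48 to 64 calls (31 to 41 rises, 14 to 23 falls) for TGFβ1 against vehicle, 2 to 9 (1 to 6, 1 to 4) for BMP2 against vehicle and 50 to 64 (20 to 31, 30 to 34) for BMP2 against TGFβ1. Depth limits Cdkn2a, Cdkn2b and E2f2, all under 10 CPM.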
